A study of Homo sapiens with 8 samples.

Results

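Feedback genes of the Wnt/β-catenin signalling loop and genes of the intestinal stem cell programme, RNF43, ZNRF3, AXIN2, NKD1, NOTUM, TCF7, LEF1, SP5, ASCL2 and LGR5, were followed through 8 nascent RNA libraries of colorectal cancer cells. They are 10 of the 18638 gene models counted, and they were chosen by name for their role in the pathway after the DLD-1 results were known, in which RNF43 and AXIN2 had large falls. Their DLD-1 values are therefore given as a description without p-values, and tests are given for the HCT116 comparison, which was not used to choose them as far as is known. Where a DLD-1 value of these genes is said to be called or not, this only places it against the edgeR threshold and is not used as a test.

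The libraries were made by factory-seq, which sequences RNA released from isolated transcription factories, so that introns are read as well as exons. There were 4 groups of 2 libraries each, all labelled asynchronous. DLD-1 cells, a colorectal adenocarcinoma line, carried an mAID-mClover degron tag on POLR2A (the catalytic subunit of RNA polymerase II) with a doxycycline-driven OsTIR1, and were either labelled untreated or given doxycycline for 24 h and then 500 µM auxin for 14 h. HCT116 colorectal carcinoma cells carried an mAID tag on TOP2A (topoisomerase IIα). They were either TOP2A-mAID cells labelled untreated or cells with the genotype label TO2B-/--TOP2A-mAID, called the TOP2B-/- group here. The titles of that second group read control while its treatment field reads auxin for 14 h, which in the protocol follows doxycycline and uses the same 500 µM dose. Genotype, doxycycline and auxin therefore cannot be told apart in it. The labels do not say whether a line is 1 clone, whether untreated also meant without doxycycline, or whether the replicates were separate cultures. The p-values therefore measure only the spread between these libraries, which may be technical.

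Wnt ligands bind Frizzled receptors with LRP5 or LRP6 and stop the destruction complex of APC, AXIN, GSK3 and casein kinase 1 from marking β-catenin for degradation. β-Catenin then joins TCF/LEF proteins on DNA and turns on target genes, several of which damp the pathway again. In the gut this circuit maintains the stem cells at the base of the crypt, which are marked by the R-spondin receptor LGR5. Both lines have the pathway switched on by mutation, DLD-1 through truncated APC and HCT116 through a mutant β-catenin.

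TCF/LEF proteins recognise short words, here searched as CTTTG followed by AT, AA, TA or TT. A promoter window with and a window without such a word are shown to place 2 of the genes described. RefSeq promoter windows, from 250 bases before to 50 bases after an annotated start on build GRCh38.p14, were found for 4 of the 10 genes, in 6 windows. The SP5 window, chr2:170715087-170715386 on the plus strand, held 3 of these words, and the first RNF43 window, chr17:58417485-58417784 on the minus strand, held none. Both run 5′ to 3′ on the gene's strand, and capitals mark the words, read on either strand.
SP5: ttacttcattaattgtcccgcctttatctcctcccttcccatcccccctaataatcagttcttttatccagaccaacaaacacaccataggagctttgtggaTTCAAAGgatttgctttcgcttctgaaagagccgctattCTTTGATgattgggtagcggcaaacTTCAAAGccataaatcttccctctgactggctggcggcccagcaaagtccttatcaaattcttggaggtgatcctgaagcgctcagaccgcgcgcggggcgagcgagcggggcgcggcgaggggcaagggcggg
RNF43: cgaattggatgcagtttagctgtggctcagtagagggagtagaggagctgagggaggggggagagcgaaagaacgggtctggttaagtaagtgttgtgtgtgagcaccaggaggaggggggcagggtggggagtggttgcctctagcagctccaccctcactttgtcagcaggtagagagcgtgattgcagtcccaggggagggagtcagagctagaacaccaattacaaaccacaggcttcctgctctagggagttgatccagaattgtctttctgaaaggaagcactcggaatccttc
In the SP5 window CTTTGAA lay on the opposite strand 148 and 84 bases before the start, and CTTTGAT lay on the gene's strand 109 bases before it. Of 35116 windows of the same length, 13.8% held at least 1 of the 4 words on either strand, with CTTTGAT in 2.62% and CTTTGAA in 4.43%. The other windows, of LEF1, TCF7 and RNF43, held a single match, a CTTTGTT on the opposite strand 50 bases before a downstream TCF7 start at chr5:134123368-134123667. These matches describe the letters and are not evidence of a bound site.

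The libraries held 10739622 to 62626875 counted reads, and the 2 DLD-1 auxin libraries were the shallowest, at 14183633 and 10739622. Reads also fell on 3111 gene models used as silent references (the lowest 20% by read density in the controls of the other cell line), and their median density is called the background. Spread over all models, that background amounted to 2.24% and 9.02% of the reads in the DLD-1 controls and to 39.5% and 59.6% in the auxin libraries. In HCT116 it was between 0.256% and 3.03%. Nascent POLR2A RNA was at 280.9 and 179.9 CPM (read counts brought to a common library size with TMM factors) in DLD-1 controls and 159.4 and 108.0 with auxin, a difference that missed the threshold (edgeR adjusted p = 0.077). This measures its RNA and says nothing of the protein, whose loss was not measured here. TOP2B was lower in the TOP2B-/- group (log2 fold change -0.50, edgeR adjusted p = 0.027) but not absent, and TOP2A did not pass (adjusted p = 0.466). Of 12 intestinal epithelial markers, 11 and 10 exceeded the 90th percentile of silent genes in the DLD-1 controls and 7 in each auxin library, and in HCT116 5 did (EPCAM, CDH1, KRT8, KRT18 and CDX2). Of 11 markers of blood, vessel, fibroblast and liver cells, 2 and 1 did so in DLD-1 controls, 4 and 3 with auxin, and 1 (COL1A1) in each HCT116 library. The part that background reads and marker changes played in the results was not tested.

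In DLD-1 control cells RNF43 and AXIN2 stood far above the other feedback genes in nascent RNA per kilobase, and ASCL2 came next. RNF43 was at 24.6 ± 1.998 CPM per kb (SD, n = 2), AXIN2 at 19.97 ± 2.63 and ASCL2 at 9.00 ± 1.39. ZNRF3 was at 2.16 ± 0.293 CPM per kb, SP5 at 1.07 ± 0.086 and LGR5 at 1.01 ± 0.0065. SP5 and LGR5 overlapped between libraries, whereas the neighbours above them in the order did not. Below them came TCF7 at 0.550 ± 0.0012, LEF1 at 0.445 ± 0.043, NKD1 at 0.329 ± 0.0146 and NOTUM at 0.072 ± 0.069 CPM per kb. NOTUM was at 0.94 and 1.27 times background, so its DLD-1 level cannot be told from background.

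The order was different in HCT116 control cells, where RNF43 again came first but AXIN2 was among the lower genes. RNF43 was at 1.89 ± 0.0022 CPM per kb (SD, n = 2), ZNRF3 at 0.917 ± 0.044, TCF7 at 0.859 ± 0.0012 and NOTUM at 0.495 ± 0.109. NKD1 at 0.359 ± 0.0084 and AXIN2 at 0.353 ± 0.0090 overlapped between libraries. SP5 was at 0.163 ± 0.071, while LGR5 and LEF1 were at 0.25 to 0.87 and 0.20 to 0.76 times background in the 2 controls. ASCL2 had 0 reads in both. Set side by side, DLD-1 controls had 56.6-fold more AXIN2, 13.0-fold more RNF43, 6.54-fold more SP5 and 2.35-fold more ZNRF3 per kb than HCT116 controls. HCT116 had 1.56-fold more TCF7. With both lines scaled together the AXIN2 and RNF43 ratios were 46.5 and 10.6. On that scale, the lowest of the 3 tried, ASCL2 was at least 195-fold higher in DLD-1 controls, against a floor of 3 reads per library. The tables were scaled separately and each line came as its own set of libraries, so these ratios are descriptions, and line and library set cannot be told apart.

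**Figure D1:**
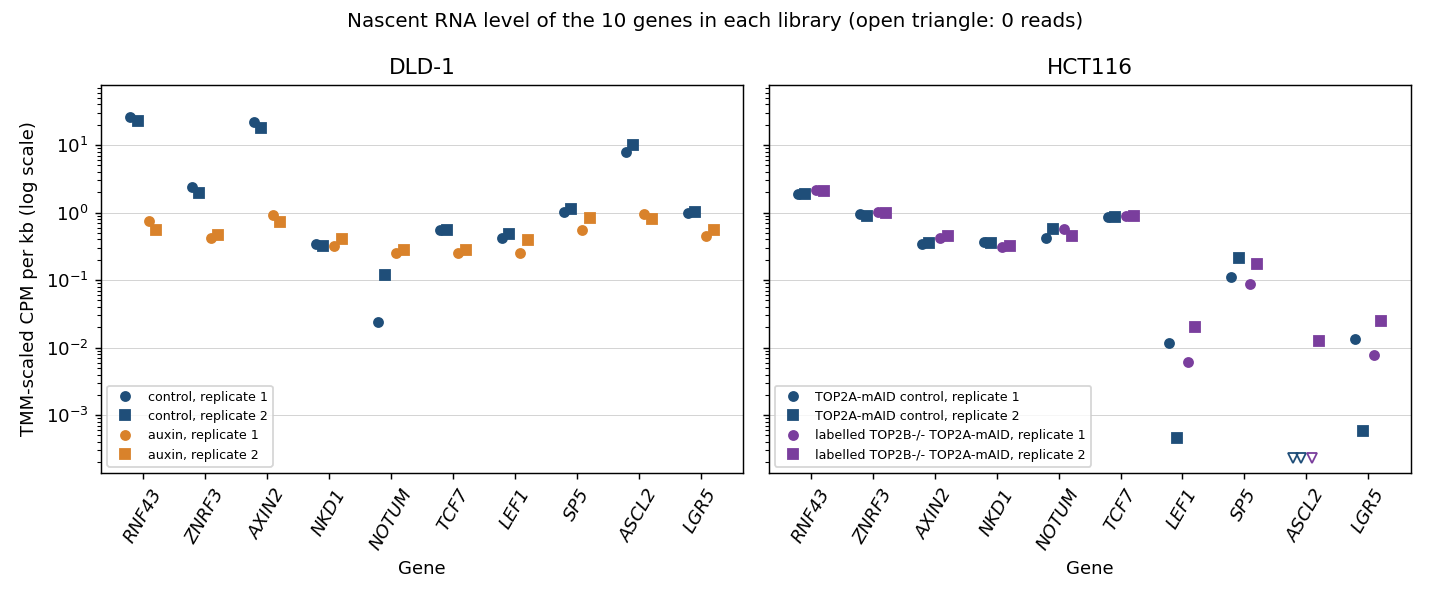
Nascent RNA level of the 10 genes, as TMM-scaled CPM per kb of gene on a log axis, in each of the 8 libraries. Points are single libraries (circle replicate 1, square replicate 2) and open triangles are 0 reads. In DLD-1 the orange auxin points of RNF43, AXIN2, ASCL2 and ZNRF3 lie well below the blue controls, while HCT116 groups lie close together except for genes near 0.

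With doxycycline and auxin, 6 of the 10 genes were called lower by edgeR, 4 were not called and none was called higher. Of 17625 genes tested in DLD-1, 67.3% were called, 35.0% lower and 32.2% higher, and since the DLD-1 contrast was used in choosing the genes nothing is read from the count. Auxin and control libraries did not overlap for 9 of the 10, against 91.0% of all tested genes. Fewer cells of a kind and less RNA per cell cannot be told apart in such bulk libraries. No external reference was used for scaling, so lower and higher describe levels relative to the other reads of a library. An absolute change in the amount of RNA cannot be read from them. The 2 membrane E3 ligases that remove Frizzled receptors come first. RNF43 (chromosome 17, 58352500 to 58417582, minus strand, GRCh38) had 1690.6 and 1506.5 CPM in the controls and 48.3 and 35.6 CPM with auxin. The groups were far apart, a 38.1-fold lower mean level (log2 fold change -5.25, -5.57 to -4.96 over the 4 pairs of libraries), the third lowest value of all genes tested. Its paralogue ZNRF3 (chromosome 22, 28883767 to 29057488) went from 410.4 and 338.5 CPM to 73.9 and 81.9 CPM, 4.81-fold lower (log2 fold change -2.27). Both were close to background with auxin, at 2.61 and 1.34 times background for RNF43 and 1.497 and 1.16 for ZNRF3.

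AXIN2 and NKD1 act inside the cell, AXIN2 as a scaffold of the destruction complex and NKD1 through Dishevelled. AXIN2 (chromosome 17, 65528565 to 65561622, minus strand) had 721.6 and 598.6 CPM in controls and 30.1 and 24.2 CPM with auxin. It was 24.3-fold lower (log2 fold change -4.60), and both auxin libraries kept a level just above the 90th percentile of silent genes, at 3.21 and 1.80 times background. NKD1 (chromosome 16, 50548330 to 50640860) had 31.4 and 29.5 CPM in controls and 29.9 and 37.5 CPM with auxin. Its groups overlapped, with a log2 fold change of 0.15, although its reads went from 13.4 and 3.34 times background to 1.14 and 1.00. NOTUM, a secreted lipase that strips the lipid from Wnt ligands, had 10 and 32 reads in controls and 38 and 33 with auxin, at 0.68 to 1.27 times background, and no fold is given.

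Values of TCF7 and LEF1, DNA-binding partners of β-catenin, lay closer to 0 than those of the ligases. TCF7 (chromosome 5, 134114711 to 134148229) had 18.40 and 18.46 CPM in controls and 8.36 and 9.52 CPM with auxin. Its control values were nearly equal and its auxin values lower by 1.04 on the log2 scale, at 0.88 and 0.70 times background. LEF1 (chromosome 4, 108047545 to 108168956) had 50.3 and 57.8 CPM in controls and 30.8 and 47.8 CPM with auxin, which did not overlap but differed by a log2 fold change of -0.46. Its reads went from 16.4 and 4.99 times background to 0.89 and 0.97. The value was not called, with library totals alone as the scale it was 0.18, and after background subtraction LEF1 was called lower.

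Among the target and stem cell transcription factors, ASCL2, which maintains intestinal stem cells, had the clearest difference. ASCL2 (chromosome 11, 2268498 to 2270952, minus strand) had 19.7 and 24.5 CPM in controls and 2.32 and 1.96 CPM with auxin, 10.3-fold lower (log2 fold change -3.36). Its auxin libraries held 40 and 27 reads, at 3.33 and 1.96 times background. SP5, a zinc finger repressor of Wnt targets whose promoter is printed above, had 2.66 and 2.98 CPM in controls and 1.45 and 2.18 CPM with auxin (log2 fold change -0.64, not called). Its counts were small, 129 and 91 reads against 25 and 30, and with library totals alone the value was 0.00. The stem cell receptor LGR5 (chromosome 12, 71439770 to 71586308) had 146.7 and 148.1 CPM in controls and 67.0 and 79.8 CPM with auxin, 2.01-fold lower (log2 fold change -1.01). It stood at 39.6 and 10.6 times background in controls and at 1.61 and 1.34 with auxin.

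**Figure D2:**
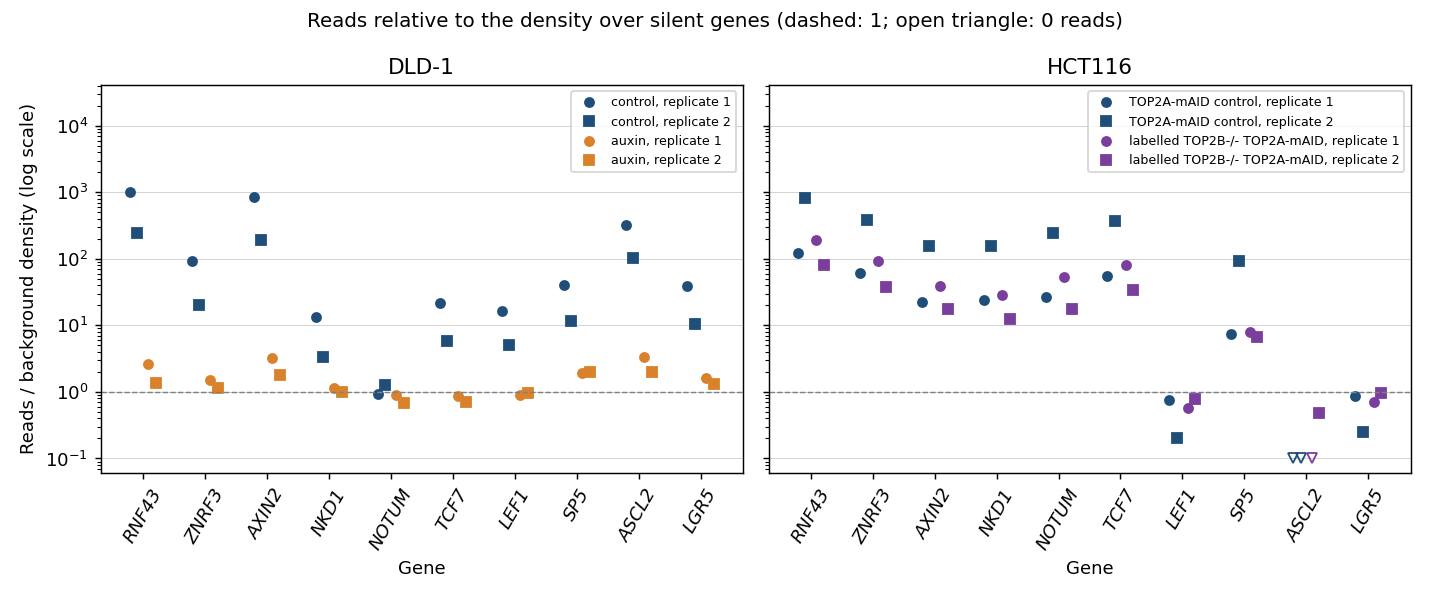
Read density of the 10 genes divided by the background density of silent genes, on a log axis with a dashed line at 1, in each library. In DLD-1 the controls of 9 genes lie above the line and all auxin points lie between 0.68 and 3.33, whereas in HCT116 7 genes stay well above the line in every library and LEF1, ASCL2 and LGR5 do not. The 90th percentile of silent genes lay at 5.11 to 55.8 times background in the HCT116 libraries, and SP5 was below it in the first library of each group.

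The scale used for the DLD-1 comparison moved every value in the same direction. The median log2 fold change of all genes was -0.06 with TMM and 0.57 with library totals alone. On the latter scale RNF43 was at -4.62, AXIN2 at -3.96, ASCL2 at -2.73 and ZNRF3 at -1.62. After background was subtracted these 4 were at -5.15, -4.11, -2.82 and -3.09, LGR5 at -1.28 and SP5 at -0.17. NKD1 turned from 0.15 to -2.68, not called. For TCF7 and LEF1, which lay below background in both auxin libraries, subtraction left 0 reads with auxin, so that both were called lower but the size of the fitted change depends on the prior count and is not given. TCF7 and LGR5 were at -0.40 and -0.36 on library totals, below 0 but no longer called. Without the first auxin library they were at -0.85 and -0.79, and without the second both were at -1.14. Leaving out each library in turn gave RNF43 values between -5.39 and -5.05 and AXIN2 values between -4.73 and -4.46.

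In HCT116 cells the genes above background lay within 0.32 of their control on the log2 scale in the TOP2B-/- group. None of the 9 genes tested was called (edgeR quasi-likelihood test, Benjamini-Hochberg adjusted over 15273 genes), where 3.41% of all genes were. At an unadjusted p under 0.05 there were 3 of the 9, against 22.9% of all genes, and DESeq2 called 1, RNF43 (adjusted p = 0.0065, and 0.0065 to 0.765 over the alternatives), where it called 20.6% of all genes. RNF43 had 122.9 and 122.7 CPM in controls and 139.2 and 137.1 CPM in the TOP2B-/- group. Both TOP2B-/- values were higher, by a log2 fold change of 0.17 ± 0.037 (SE, 95% interval 0.07 to 0.27), with an edgeR adjusted p of 0.103. ZNRF3 had 164.8 and 153.9 CPM in controls and 175.4 and 171.7 CPM in the TOP2B-/- group. That difference, 0.12 on the log2 scale (-0.02 to 0.27, edgeR adjusted p = 0.267), was 0.0062 without the second control.

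AXIN2 had 11.4 and 11.9 CPM in HCT116 controls and 14.1 and 15.0 CPM in the TOP2B-/- group. Its log2 fold change was 0.32 ± 0.112 (SE, 95% interval 0.01 to 0.63, edgeR adjusted p = 0.210), and it passed only once background was subtracted (adjusted p = 0.045, and 0.045 to 0.978 over the alternatives). NKD1 had 33.8 and 32.7 CPM in controls and 28.8 and 29.6 CPM in the TOP2B-/- group. It was the one gene well above background whose TOP2B-/- values both lay lower, with a log2 fold change of -0.19 ± 0.066 (SE, edgeR adjusted p = 0.214). TCF7 had 28.8 CPM in both controls and 30.0 and 29.8 CPM in the TOP2B-/- group. Its interval of -0.13 to 0.24 on the log2 scale bounds any difference in either direction. NOTUM had 3.63 and 4.96 CPM in controls and 5.00 and 3.94 CPM in the TOP2B-/- group, which overlapped. Groups did not overlap for 5 of the 9 genes, as for 55.3% of all genes tested.

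The remaining genes had few reads or were at background in HCT116. SP5 had 10 and 20 reads in controls and 8 and 15 in the TOP2B-/- group, and its log2 interval ran from -2.72 to 2.08. LEF1 had 48 and 2 reads against 26 and 81, and LGR5 had 66 and 3 against 39 and 120, at or below background in all 4 libraries. ASCL2 had 0 reads in 3 libraries and 1 in the fourth and was not tested. No difference can be read from these 4 genes at such counts.

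**Figure D3:**
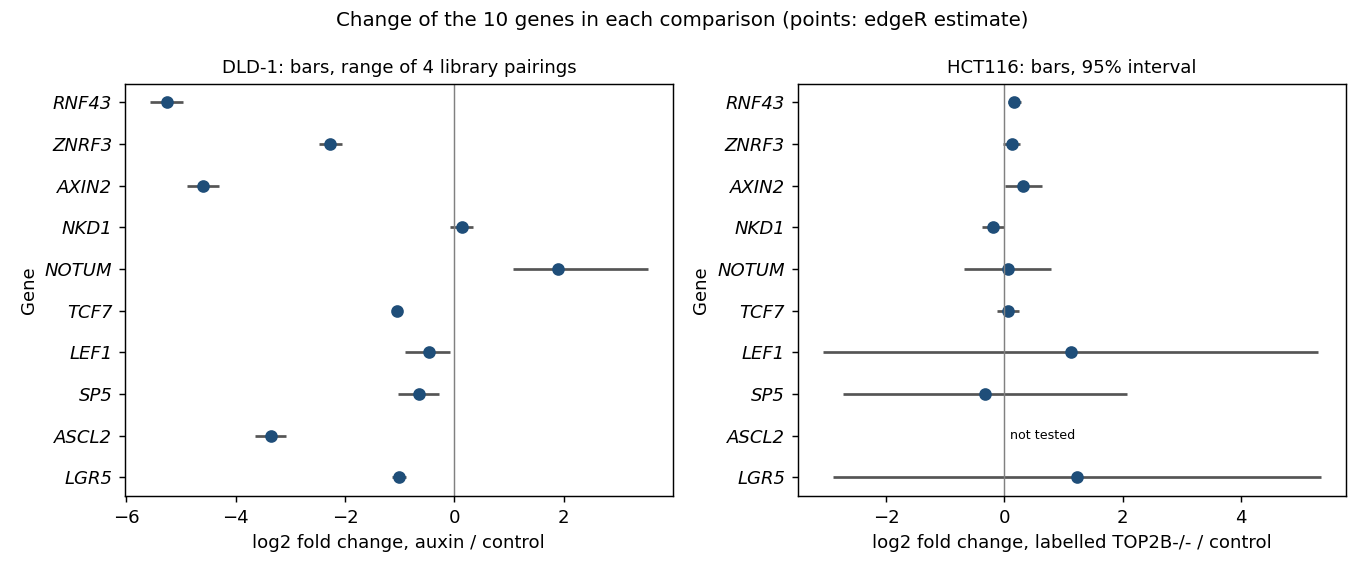
Log2 fold change of the 10 genes in each comparison, as fitted by edgeR, with the range over pairs of libraries in DLD-1 and the 95% interval in HCT116. In DLD-1 RNF43 (-5.25), AXIN2 (-4.60), ASCL2 (-3.36) and ZNRF3 (-2.27) lie furthest below 0, and NOTUM, drawn at the right, was at background in all 4 libraries. In HCT116 the genes above background lie within 0.32 of 0, LEF1 and LGR5 are at or below background with wide intervals, and ASCL2 was not tested.

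None of the 10 gene models overlapped another. Of the 20 genes on either side, picked by position, 6 were called lower, 8 higher and 6 not called in DLD-1 (edgeR). Among all genes tested there, 35.0% were lower and 32.2% higher. The controls of the 8 higher neighbours stood at 0.322 to 2.76 times background. Beside RNF43, SUPT4H1, which encodes a transcription elongation factor subunit and lies 0.261 kb away, was lower with auxin (log2 fold change -1.88, edgeR adjusted p = 0.0048), and HSF5, 2.584 kb away on the other side, was higher (1.998, edgeR adjusted p = 0.020). Beside ZNRF3, XBP1 was lower (-2.51, edgeR adjusted p = 0.0042) and C22orf31 higher (2.58, edgeR adjusted p = 0.026). Beside AXIN2, RGS9 was higher (1.89, edgeR adjusted p = 0.022) and CEP112 did not pass (-0.07, edgeR adjusted p = 0.777). These 3 pairs were chosen for naming after their values were seen. In HCT116 none of the 15 neighbours tested was called by edgeR, where 3.41% of all genes were.

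The lists of other Wnt pathway genes were also chosen with earlier results of these data known. The adjusted p-values given for their genes therefore describe the fit and are not independent tests. Around the feedback genes, 101 other genes of the Wnt pathway were sorted by role, from ligands to target genes, and 100 were tested in DLD-1. Of these 36 were lower and 35 higher with auxin (edgeR), close to the 35.0% and 32.2% of all genes. Their median log2 fold change was 0.17, against -0.06 for all genes. With library totals alone the split was 21 lower and 41 higher, against 3377 lower and 7544 higher among all genes. With background subtracted it was 32 lower and 18 higher of 80 tested, against 4586 lower and 3977 higher. The roles differed in their counts. The destruction complex list also held Dishevelled and tankyrase genes and CTNNB1. It had 12 of 14 genes lower and 1 higher, with a median of -1.38. They included GSK3B, the kinase that marks β-catenin (666.4 ± 16.2 to 210.0 ± 5.42 CPM, SD, n = 2; log2 fold change -1.67, edgeR adjusted p = 0.0043), and APC (log2 fold change -1.58, edgeR adjusted p = 0.0042). CTNNB1, which encodes β-catenin, passed at a log2 fold change of -0.96 (edgeR adjusted p = 0.041), but not with library totals alone (-0.32, adjusted p = 0.326) or with background subtracted, where its sign turned (0.27, adjusted p = 0.179). It passed in 1 of 4 fits with a library left out. Several other genes of the 12 lower ones also missed the threshold with library totals alone, with background subtracted or with both. Of 12 nuclear cofactors 7 were lower and 3 higher. TCF7L2, the main TCF factor of the gut, was at 1578 ± 252 CPM and 110.0 ± 0.946 CPM (SD, n = 2), a log2 fold change of -3.84 (edgeR adjusted p = 0.0042), beside -1.04 for TCF7 and -0.46 for LEF1. TCF7L2 stood at 67.6 to 320 times background in controls and at 1.25 to 1.77 with auxin. Since TCF7 and LEF1 lay below background with auxin, the sizes of these changes cannot be compared. TLE3, a corepressor, was at -2.75 and CREBBP, a coactivator, at -2.44. With auxin they stood at 0.89 to 1.33 and at 1.13 to 1.49 times background, so their fitted sizes are uncertain.

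Of 16 target and stem cell genes outside the 10, 8 were lower and 5 higher. Some of the 8 were not called with library totals alone, and SLC12A2 was called higher with background subtracted (0.41, edgeR adjusted p = 0.014). MYC was at 63.1 ± 4.36 CPM in controls and 2.98 ± 1.13 CPM with auxin (SD, n = 2; log2 fold change -4.40, edgeR adjusted p = 0.0042), next to AXIN2 in size. EPHB3, SOX9 and ETS2 were lower by log2 fold changes of -2.88, -2.75 and -2.69. EPHB2, an ephrin receptor of the crypt, was at -1.18 (edgeR adjusted p = 0.0097). CCND1 at -0.36 and CD44 at -0.19 did not pass, and with background subtracted CCND1 was called higher (0.92, edgeR adjusted p = 0.0034). Of 21 receptors and R-spondins 8 were lower and 5 higher. The co-receptors LRP6 (-1.41) and LRP5 (-1.22) and the Frizzled receptor FZD5 (-1.13) were among those lower. FZD5 was not called with library totals alone (-0.49) or with background subtracted (-0.98). LRP6 was not called with library totals alone (-0.77) and lay at 0.26 to 0.55 times background with auxin. The R-spondin receptor LGR4 (-0.73, edgeR adjusted p = 0.027) was called too, but in none of the 4 fits with a library left out, and not with library totals alone (-0.09) or background subtracted (-0.20). Ligands had 12 of 20 higher and 1 lower, the Wnt carrier WLS (-0.91, not called with library totals alone at -0.28 or with background subtracted at -0.46). Secreted and other inhibitors had 9 of 17 higher and none lower. WIF1 (4.10) and DACT1 (4.15) had the largest values of these 9, of which 3 had both auxin libraries above the 90th percentile of silent genes. Of the 35 genes called higher, 25 had neither control above the 90th percentile of silent genes, while all 36 called lower had both controls above it. Among all genes these shares were 72.9% and 99.4%. With auxin 5 of the 35 had both libraries above that percentile, the 12 ligands lying at 0.592 to 2.43 times background. After background subtraction 16 of the 35 were still called higher, 3 were called lower, 7 were not called and 9 were not tested. Of 57 pathway genes with both controls above it, 36 were lower and 4 higher, and of all such genes 52.6% were lower and 8.15% higher. Without the first auxin library 1 was called higher and 16 lower, and without the second none higher and 19 lower. Among all genes the same fits called 72 higher and 2321 lower, and 215 higher and 2950 lower.

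**Figure D4:**
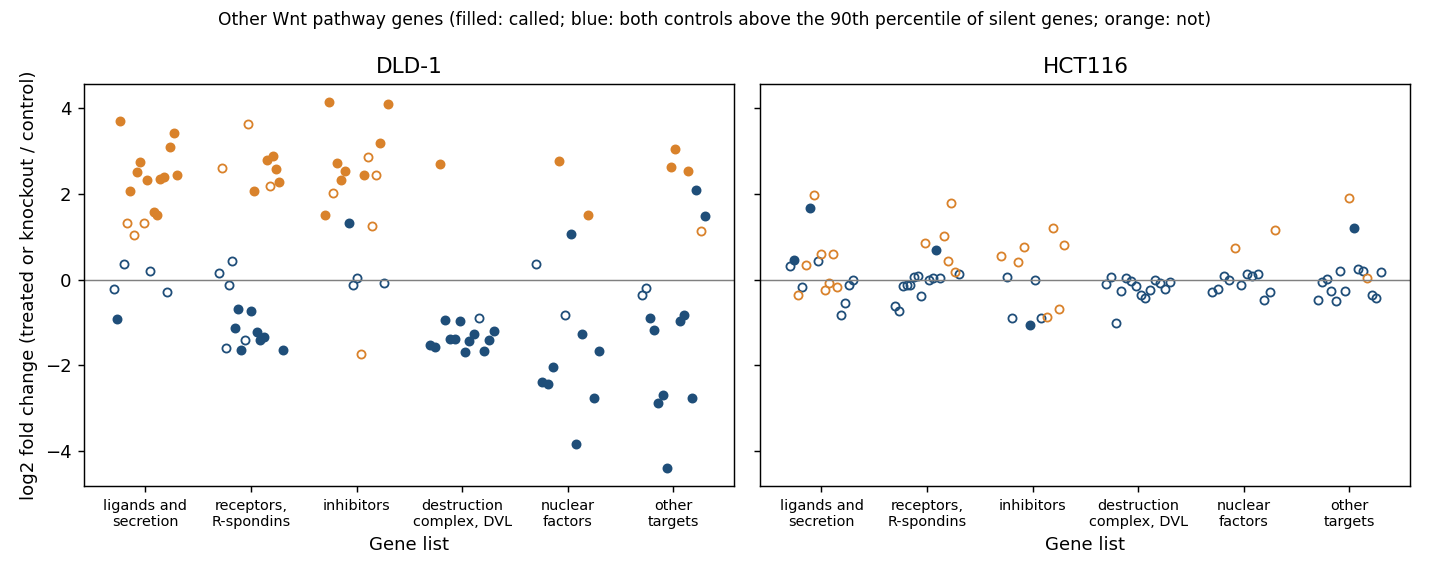
Log2 fold change (auxin minus control in DLD-1, TOP2B-/- minus control in HCT116) of the other Wnt pathway genes by role. Points are genes, filled where called, blue where both controls exceeded the 90th percentile of silent genes and orange where they did not. In DLD-1 the destruction complex list and nuclear cofactors lie mostly below 0 and ligands and inhibitors mostly above. In HCT116 only 5 genes are called.

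In HCT116 88 of the 101 pathway genes were tested, and 4 were higher and 1 lower in the TOP2B-/- group, where 1.75% and 1.66% of all genes were (edgeR). That balance turned with DESeq2 (7 higher, 12 lower), with background subtracted (5 and 11) and at a mean CPM of at least 5 (4 and 6). Among all genes the same settings called 1420 higher and 1725 lower, 1163 and 1144, and 564 and 657. WNT16, a Wnt ligand, was at 16.3 ± 0.409 CPM in controls and 52.0 ± 4.38 CPM (SD, n = 2), a log2 fold change of 1.67 (edgeR adjusted p = 0.025). PROM1, a stem cell surface protein, was at 23.4 ± 0.266 and 54.1 ± 0.684 CPM, a log2 fold change of 1.21 (edgeR adjusted p = 0.024). ROR1, a Wnt5a receptor, and WLS were higher by 0.68 and 0.46 (edgeR adjusted p = 0.046 and 0.038), and FRZB, a secreted Frizzled-related inhibitor, was lower at -1.07 (edgeR adjusted p = 0.029). None of the 5 was called when either TOP2B-/- library was left out (edgeR), and then no gene of the table passed. MYC (-0.27), SOX9 (-0.35), CCND1 (-0.46) and CTNNB1 (-0.15) did not pass in edgeR, while DESeq2 called CCND1 (adjusted p = 5.7e-06), SOX9 (0.013) and CTNNB1 (0.041).

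Across the 8 libraries the genes whose levels ran most like AXIN2 were LMO4, GATA6, PYROXD1, DDX26B and LIPH, with Pearson correlations of 0.997 to 0.995 among 11041 genes ranked. GATA6, a transcription factor of the gut, was at 210.4 and 167.4 CPM in DLD-1 controls and at 13.4 to 19.7 CPM in the other 6 libraries when both lines were scaled together. AXIN2 was likewise high only in the 2 DLD-1 controls, so these correlations rest on those 2 libraries. RNF43 had a correlation of 0.846 with AXIN2, ZNRF3 0.618, TCF7 -0.324 and NKD1 -0.593. The correlations are descriptions over 8 libraries that share cell line, depth and background.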

How the data were processed

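Factory-seq RNA of 8 libraries (4 groups of 2) was compared. The authors deposited raw read counts per gene model, over introns and exons, on GRCh38/hg38. STAR and DESeq2 are named in the submitters' processing notes without versions. The deposited comparison tables hold fold changes and p-values and were not used. Each cell line was fitted on its own 4 libraries in R 4.3.3 with edgeR 4.0.16 (filterByExpr, TMM, quasi-likelihood test, Benjamini-Hochberg, adjusted p of 0.05). DESeq2 1.42.0, DESeq2 size factors, library totals, background subtraction, a mean CPM of 5, no filter, a replicate block and leaving out each library were alternatives. The fit was tested on simulated data. Background was the median density over the lowest 20% of models of at least 5000 bases in the other line's controls, and the 90th percentile yardstick was added after the values were seen. Library totals ranged from 10739622 to 62626875, and intervals cover the spread of 2 libraries a group.

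The 10 genes and all lists were chosen with earlier results of these data known. Named were the 10 genes, per pathway list and comparison up to 4 called genes a direction by size of change, a set of core pathway genes that could be named in either comparison whether called or not (CTNNB1, APC, GSK3B, TCF7L2, LGR4, LRP5, LRP6, FZD5, MYC, CCND1, SOX9, EPHB2 and CD44), the 5 genes most correlated with AXIN2 and the targeted genes. SLC12A2 was also named, for its change of sign. The paper supplied with the series describes another experiment, so no design was taken from it. Promoter windows came from RefSeq, GRCh38.p14.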

Additional observations from a re-analysis of the deposited data

How the results depend on the processing

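The DLD-1 count of 11855 called genes ran from 2393 to 12732 when 1 library was left out, lowest without the first auxin library (3165 without the second), and the count of 71 called pathway genes ran from 17 to 83. In HCT116 the 521 called genes became 3145 with DESeq2, 2307 after background subtraction, 1221 at a mean CPM of at least 5, and 0 to 2519 with 1 library left out (0 without either TOP2B-/- library, 2519 without the first control). The 5 called pathway genes became 19, 16 and 10 in the same alternatives and 0 to 14 with 1 library left out. The 0 called feedback genes became 1 with DESeq2 (RNF43) and 1 after background subtraction (AXIN2). With the first or second TOP2B-/- library left out, 2266 and 1286 genes had an unadjusted edgeR p under 0.05. Of the feedback genes in HCT116, NOTUM ran from -0.16 to 0.23, TCF7 from -0.015 to 0.061 and SP5 from -0.89 to 0.14 (log2) with 1 library left out, so their sign depends on single libraries. The cause of these changes was not tested.

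With the replicate number as a block, edgeR called 12963 genes in DLD-1 and 0 in HCT116, 0 of them pathway genes, where 2177 had an unadjusted p under 0.05. Nothing in the labels pairs libraries by these numbers. Across genes, the deviation of the first library from its group mean correlated between the 2 groups at 0.56 in DLD-1 and -0.82 in HCT116. Whether same-numbered libraries shared a batch was not tested. SP5 rested on 8 to 20 reads a library in HCT116, and LEF1, LGR5 and ASCL2 there and NOTUM in DLD-1 were at or near background.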
